A study of Danio rerio with 13 samples.

Results

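The gene klf9 was followed in the tail of zebrafish larvae in which the deiodinases, the enzymes that activate or inactivate thyroid hormone, had been knocked down. It encodes Krüppel-like factor 9, a zinc finger transcription factor. Its probes were found by matching the RefSeq mRNA accessions in the deposited lists of called probes to RefSeq gene symbols. This gave 1 probe for 1 gene, among 995 probes in those lists, 572 named genes and 19523 probes measured. Only probes that were called in at least 1 contrast carry a name here. A second klf9 probe that was called nowhere would therefore not be seen, and the presence of klf9 in a list is a condition of the choice and not a finding.

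Larvae of the wild type WIK strain were studied at 72 hours post fertilization (hpf) on 13 2-colour arrays. As embryos they had been injected with a morpholino, a synthetic antisense oligomer. D3MO was directed against the deiodinase of type 3 (dio3b), D1D2MO was a pair directed against the deiodinases of type 1 and type 2, and SCMO was a standard control morpholino. All larvae were kept in Danieau's solution and all carried an injected oligomer, so no group was free of injection. D3MO was hybridised with SCMO on 4 arrays (D3MO in the Cy5 channel on 2), D1D2MO with SCMO on 5 (D1D2MO in Cy5 on 3), and D3MO with D1D2MO on 4 (D3MO in Cy5 on 3). Each channel held RNA from a pool of 20 tails per the labels, and a larger pool per the methods. The knockdowns act in the whole animal and not in the tail alone. The morpholinos block translation, so deiodinase mRNA does not measure the knockdown, and no deiodinase gene has a named probe here.

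Thyroid hormone circulates mainly as the prohormone T4. The deiodinases of type 1 and type 2 convert T4 to the active hormone T3, and the deiodinase of type 3 inactivates both. T3 acts through nuclear receptors, and klf9 is known as a direct target that T3 induces in frog tadpoles and in mammalian brain cells. It is also known as a target of the glucocorticoid receptor, and in vertebrate tissues its product mostly represses transcription.

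The klf9 transcript was lower in D3MO tails than in SCMO tails and was not called changed in D1D2MO tails. Its level in D3MO stood at 62.2% of that in SCMO (95% confidence interval 56.6 to 68.4%). This is a log2 fold change of -0.68 ± 0.06 (standard error, SE) with an adjusted p of 0.000198 by limma in the authors' deposited fit. In D1D2MO its level stood at 102% of that in SCMO (95% confidence interval 93.7 to 112%), at a log2 fold change of 0.03 ± 0.06 (adjusted p = 0.711). Values per array were not used here, so the spread of klf9 between pools was not seen directly. Pools recur on arrays, so these SE and intervals may mix that spread with differences between hybridisations of the same RNA. Each group may also differ in the number of klf9-expressing cells, and fewer such cells and less klf9 RNA per cell cannot be told apart in whole tail RNA.

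The direct comparison of the knockdowns tests whether their effects on klf9 differed. In D3MO tails klf9 stood at 60.7% of its level in D1D2MO tails (95% confidence interval 55.2 to 66.8%), a log2 fold change of -0.72 ± 0.06 (adjusted p = 8.87e-05, limma). This contrast equals the difference of the knockdowns' contrasts against SCMO and adds no separate measurement of klf9. The interval of D1D2MO vs SCMO, -0.09 to 0.16 on the log2 scale, spanned 0 and did not overlap that of D3MO vs SCMO, -0.82 to -0.55. It bounds the D1D2MO change of klf9 but does not show that there was none.

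**Figure D1:**
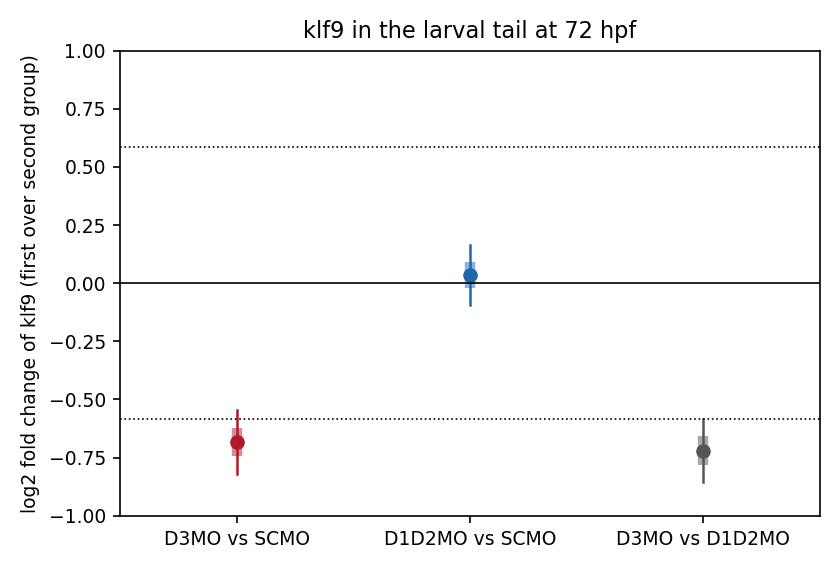
The plot gives the log2 fold change of klf9 (vertical axis, first named group over second) in each contrast, with the dot at the fitted value, the thick bar at ± 1 SE, the thin line at the 95% confidence interval and dotted lines at a 1.5-fold change. Both contrasts with D3MO as the first group lie below the lower dotted line, at -0.68 and -0.72, while D1D2MO vs SCMO lies at 0.03 with an interval that spans 0.

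A probe counted as changed when its adjusted p was below 0.05 and its fold change above 1.5 in either direction, which is 0.585 on the log2 scale. In D3MO vs SCMO klf9 was 1 of 113 probes called lower, 0.579% of all probes, against 274 called higher, 1.4% of all. It ranked 49th from the lowest of all 19523 fold changes, and its change in either direction was larger than that of 99.0% of probes. The middle 95% of probes lay between -0.41 and 0.49. The fold threshold of 0.585 lies outside that range, so every probe called in this contrast does too. That klf9 stood outside the bulk of the array thus follows from its call and is no separate finding. The klf9 change passed the fold threshold by 0.10, and its 95% confidence interval reached across that threshold. A limma-type test of whether the fold itself exceeded 1.5 gave an unadjusted p of 0.0667. The decrease was thus distinct from 0, while a decrease of more than 1.5-fold was not.

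In D1D2MO vs SCMO nearly all called probes were higher. There were 459 called higher (2.35% of probes) and 2 called lower (0.0102%), and klf9 was in neither set. Its fold change exceeded that of 60.4% of probes, and its size exceeded that of 21.5%. The klf9 probe was therefore among the many that moved little in this knockdown, in which the middle 95% of probes spanned -0.25 to 0.57.

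In D3MO vs D1D2MO klf9 was 1 of 445 probes called lower (2.28% of probes), against 178 called higher (0.912%). It ranked 236th from the lowest among all probes, less extreme than its rank against SCMO, although the fold change itself was slightly larger. The middle 95% of probes reached further down here, to -0.56. The test of whether the fold exceeded 1.5 gave an unadjusted p of 0.0267 in this contrast. After adjustment over all probes klf9 was not called by that test. The 95% confidence interval of klf9 was -0.86 to -0.58 on the log2 scale.

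**Figure D2:**
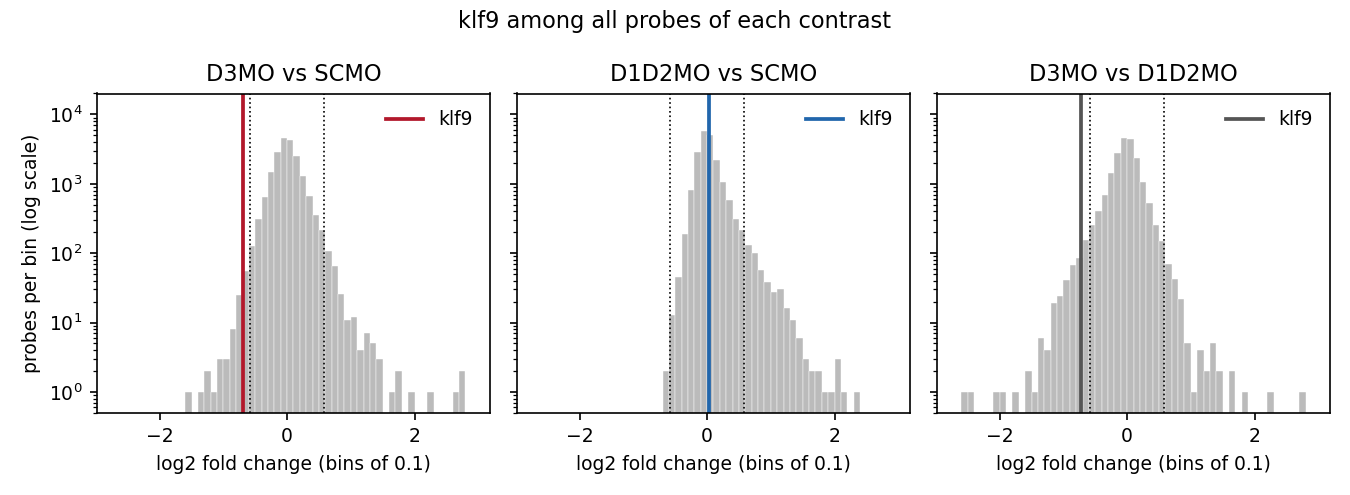
Each panel is a histogram of the log2 fold changes of all 19523 probes in 1 contrast, in bins of 0.1 with the number of probes on a log axis, a coloured line at klf9 and dotted lines at a 1.5-fold change. The klf9 line lies in the lower tail of D3MO vs SCMO and of D3MO vs D1D2MO and near the peak of D1D2MO vs SCMO.

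The klf9 probe was a dim one, with a mean log2 intensity of 7.51 over all arrays. The 995 probes of the called lists ranged between 6.52 and 15.7 with a median of 9.12, and klf9 was the 115th dimmest of them. Brightness differs between probes for reasons other than transcript level, so this rank does not order genes by expression. The SE of klf9 was larger than that of 55.4% of all probes, close to the middle of the array. In each contrast the median fold change of all probes lay within 0.02 of 0 on the log2 scale.

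Other Krüppel-like and SP factors share the zinc finger domain of klf9 and bind similar GC-rich sequences. Of 37 listed members of the family, 3 had a named probe, klf9 included. The gene klf3, which encodes a transcriptional repressor, was also lower in D3MO, at -0.62 ± 0.06 against SCMO (adjusted p = 0.000306). It stood at 0.14 ± 0.06 in D1D2MO vs SCMO (adjusted p = 0.12). Its direction and size in D3MO were thus near those of klf9. The gene sp6, a factor of epithelia and tooth development in mammals, was higher in D3MO, with a fold change of 0.66 ± 0.06 (adjusted p = 0.000187), while its value in D1D2MO was -0.17 ± 0.05 (adjusted p = 0.0509). In D3MO vs D1D2MO klf3 was lower at -0.76 ± 0.06 and sp6 higher at 0.83 ± 0.06. The family counts were 1 higher and 2 lower in D3MO vs SCMO, none in D1D2MO vs SCMO, and 1 higher and 2 lower in D3MO vs D1D2MO. Because a gene was named only through a call, these counts cannot be read against the share of all probes, here or in the lists that follow. Over the whole set of 572 genes with a name, D3MO vs SCMO had 152 higher and 57 lower, D1D2MO vs SCMO 266 and 2, and D3MO vs D1D2MO 102 and 229. In the same order of contrasts the 3 family members had median fold changes of -0.62, 0.03 and -0.72, and all named genes 0.29, 0.51 and -0.48.

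The thyroid hormone axis, from hormone synthesis to receptors, held 38 listed genes besides klf9, of which 1 had a named probe. This was slc16a10, which encodes a transporter of aromatic amino acids that in mammals also carries thyroid hormones. It was lower in D3MO, at -0.60 ± 0.13 against SCMO (adjusted p = 0.00897), and stood at -0.00 ± 0.12 in D1D2MO (adjusted p = 0.986). In D3MO vs D1D2MO it was lower at -0.60 ± 0.13 (adjusted p = 0.00886). Its values were close to those of klf9 in every contrast, with an SE above that of klf9. No receptor, deiodinase, binding protein or hormone synthesis gene of the list was named.

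Of 31 other genes known to be induced by T3 in vertebrates, 5 were named, and they did not move in 1 direction with klf9. The uncoupling proteins, carriers of the inner mitochondrial membrane, were lower in D3MO tails. The gene ucp3 stood at -1.03 ± 0.08 in D3MO vs SCMO (adjusted p = 0.000102) and at -0.01 ± 0.07 in D1D2MO vs SCMO. The brighter ucp1 probe stood at -0.85 ± 0.06 in D3MO vs SCMO (adjusted p = 5.67e-05, limma). In D1D2MO vs SCMO it stood at 0.28 ± 0.05 (adjusted p = 0.00629), below the fold threshold. The dimmer ucp1 probe gave -0.38 in D3MO vs SCMO, also below the threshold, so the size of the ucp1 decrease depended on the probe. The other 3 named genes were higher in D3MO, opposite to klf9. They were mmp2, a matrix metalloproteinase, at 0.74 ± 0.06, plp1a, a myelin proteolipid gene, at 0.77 ± 0.06, and atp2a1, the calcium pump of fast muscle, at 0.72 ± 0.09. In D1D2MO vs SCMO these genes stood at -0.03 ± 0.05 for mmp2, 0.25 ± 0.06 for plp1a and 0.52 ± 0.09 for atp2a1. Their adjusted p by limma was 0.717, 0.0136 and 0.00316 in that order, and none passed the fold threshold or was called. The list thus had 3 members higher and 2 lower in D3MO vs SCMO (median 0.72), none called in D1D2MO vs SCMO (median 0.25), and 1 higher and 2 lower in D3MO vs D1D2MO (median 0.21).

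Glucocorticoid targets were listed because the glucocorticoid receptor also acts on klf9, and 4 of 29 were named. The gene lpin1a, which encodes a phosphatidate phosphatase of lipid synthesis, was lower in D3MO, at -0.66 ± 0.07 against SCMO (adjusted p = 0.000348), and its value in D1D2MO was 0.05 ± 0.06. Its second probe gave -0.58 and 0.02 in these contrasts. The gene fkbp5, a co-chaperone of the glucocorticoid receptor, stood at -0.55 ± 0.09 in D3MO vs SCMO, short of the fold threshold (adjusted p = 0.00337), and at 0.03 ± 0.09 in D1D2MO vs SCMO. Both genes stood near klf9 in these contrasts, though only lpin1a was called. The cytokine signalling inhibitor socs3a and the transcription factor cebpd did not. Against SCMO, socs3a stood at -0.31 ± 0.06 in D3MO (adjusted p = 0.00411, limma) and 0.42 ± 0.05 in D1D2MO (adjusted p = 0.00066). The gene cebpd stood at -0.07 ± 0.06 in D3MO (adjusted p = 0.371, limma) and 0.54 ± 0.05 in D1D2MO (adjusted p = 0.000175). All these values were within the fold threshold, so none was called. In D3MO vs D1D2MO all 4 were lower, at -0.71 for lpin1a, -0.59 for fkbp5, -0.74 for socs3a and -0.61 for cebpd, so that contrast alone did not separate the patterns. The list counts were 0 higher and 1 lower in D3MO vs SCMO (median -0.43), none in D1D2MO vs SCMO (median 0.24), and 0 higher and 4 lower in D3MO vs D1D2MO (median -0.66). None of the 35 listed circadian clock genes was named. Only 32 of these symbols were among the RefSeq gene symbols, so the rest could not have been named. The same limit held elsewhere, with 36 of 37 family members and 30 of 31 other T3-induced genes among those symbols. For markers it was 8 of 9 for fin fold and notochord and 13 of 14 for liver and yolk.

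**Figure D3:**
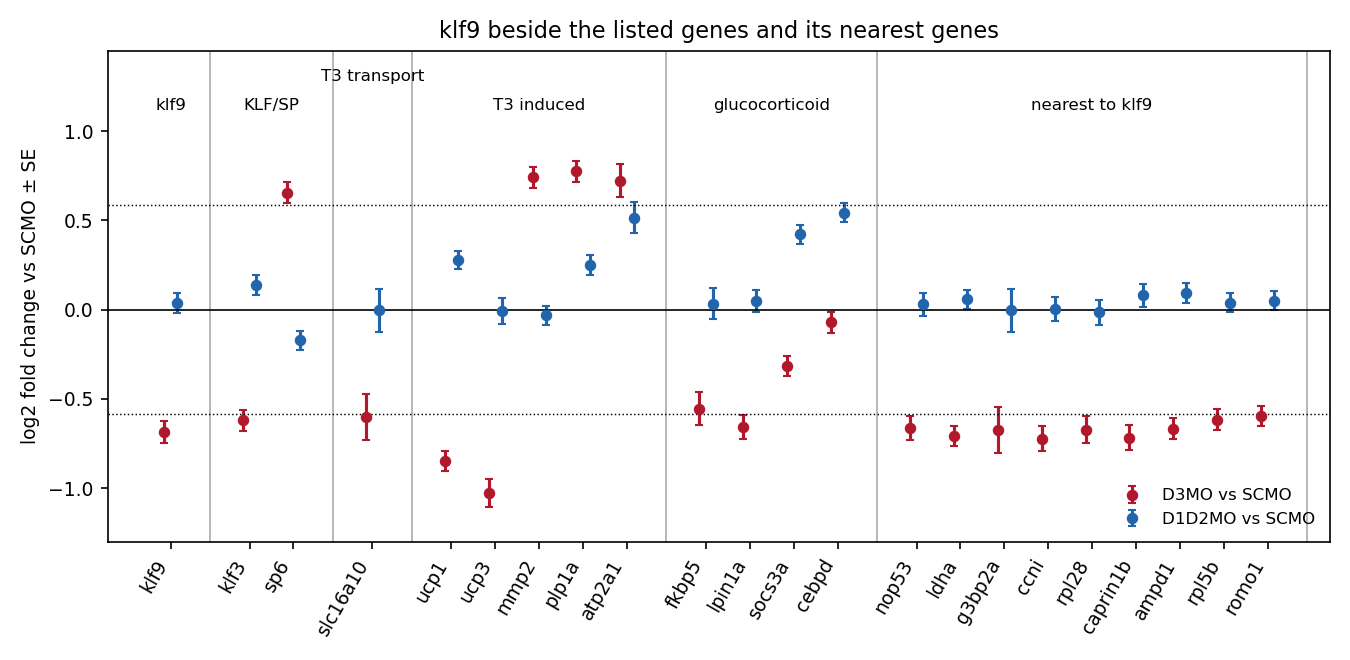
Points give the log2 fold change against SCMO (vertical axis) of klf9, of the named members of the lists and of the genes nearest to klf9, in D3MO and in D1D2MO, with bars of ± 1 SE and dotted lines at a 1.5-fold change. D3MO lies near or below the lower dotted line and D1D2MO near 0 for klf9, slc16a10, ucp3, fkbp5, lpin1a and the nearest genes, whereas mmp2, plp1a, atp2a1 and sp6 are higher in D3MO.

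The genes whose pattern was most like that of klf9 were sought by the distance between their 2 fold changes against SCMO and those of klf9, in log2 units, over the brightest probe of each of 554 genes. Likeness thus rests on 2 fitted values per gene and on arrays that share the SCMO pools. Genes with clone or locus number symbols were left out of this ranking, which therefore covers 554 of the 572 named genes. The median distance was 0.693 over the other 19522 probes and 1.2 over the ranked genes, each of which was called in some contrast. Within 0.1 lay 19 probes, of which 17 had a gene name, for 16 genes. The nearest gene was nop53, a ribosome biogenesis factor, at a distance of 0.022. It stood at -0.66 ± 0.07 in D3MO and 0.03 ± 0.06 in D1D2MO. After it came lpin1a and ldha, the lactate dehydrogenase A gene, each at 0.033. The tenth gene lay at 0.090 and slc16a10 came just after it at 0.091.

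The 10 nearest genes have varied roles. The stress granule proteins g3bp2a (-0.68 ± 0.13 in D3MO, -0.00 ± 0.12 in D1D2MO) and caprin1b (-0.72 ± 0.07 in D3MO, 0.08 ± 0.07 in D1D2MO) bind each other in mammalian cells. The ribosomal protein genes were rpl28 (-0.67 ± 0.08 in D3MO, -0.01 ± 0.07 in D1D2MO) and rpl5b (-0.62 ± 0.06 in D3MO, 0.04 ± 0.05 in D1D2MO). The remaining genes were ccni, which encodes cyclin I, ampd1, the AMP deaminase of muscle, and romo1, a small mitochondrial membrane protein gene. All 10 were called lower in D3MO vs SCMO and in D3MO vs D1D2MO, and none was called in D1D2MO vs SCMO, which the closeness to klf9 largely fixes.

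Some of these genes had a second probe that did not follow klf9. The dimmer ldha probe stood at 0.01 in D3MO and 0.68 in D1D2MO, against -0.71 and 0.06 for the brighter one. The dimmer ampd1 probe stood at -0.03 in D3MO and 0.62 in D1D2MO, against -0.67 and 0.09. The other 3 ccni probes spanned -0.62 to -0.25 in D3MO and -0.22 to 0.43 in D1D2MO. By contrast, the second probes of lpin1a, caprin1b and rpl5b lay at -0.58, -0.55 and -0.59 in D3MO, with the sign of the first probe. For klf9 itself 1 probe was available, so its pattern has no such check.

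**Figure D4:**
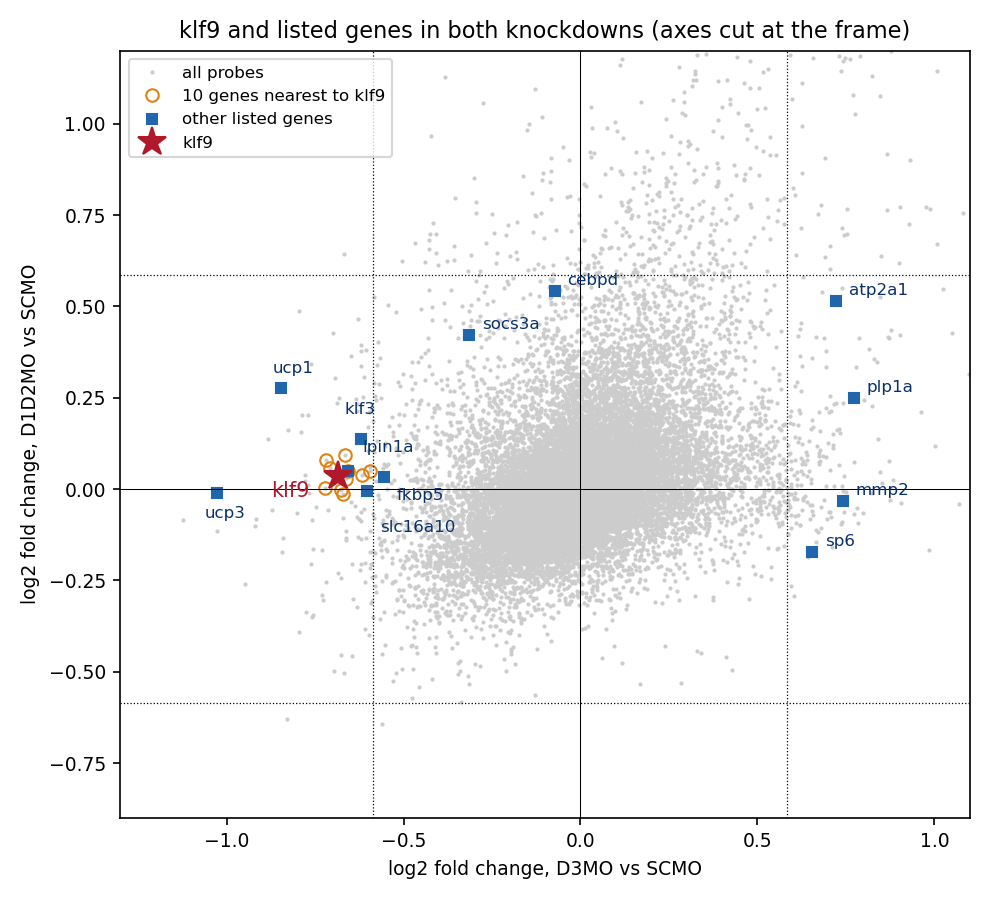
Each grey point is 1 probe at its log2 fold change in D3MO vs SCMO (horizontal axis) and in D1D2MO vs SCMO (vertical axis), with dotted lines at a 1.5-fold change and some probes beyond the frame. The star marks klf9 at -0.68 and 0.03, the rings the 10 nearest genes around it, and the squares the other listed genes.

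Markers of the cell types in the dissected tissue moved between the same groups, and their part in the klf9 result was not tested. Fast muscle genes were the most numerous, with 13 of 15 listed markers named. By the brightest probe 9 were higher in D3MO vs SCMO (median 0.72), 12 were higher in D1D2MO vs SCMO (median 1.19), and none was lower in either, unlike klf9. The other 4 named muscle markers, myhz1.2, tnnt3a, tnnt3b and ckma, were not called in D3MO, and 2 dimmer acta1a probes stood at 0.14 and -0.11 there. Erythrocyte markers were higher for 4 of 4 named genes in D3MO and for 2 in D1D2MO, of 9 listed. Epidermal markers were higher for 1 of 6 named genes in D3MO and for 5 in D1D2MO, of 11 listed. Fin fold and notochord markers had 3 of 9 listed genes named, with 1 higher in each knockdown. These were different genes, and2 (0.60) in D3MO and col1a1a (0.71) in D1D2MO. The dimmer and2 probe stood at 0.13 in D3MO and 0.64 in D1D2MO, against 0.60 and -0.29 for the brighter one.

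The list of spinal cord neuron markers, which also held the myelin gene plp1a, had 4 of 12 genes named. In D3MO vs SCMO 1 was lower and 1, plp1a, was higher, and none was called in D1D2MO. The neuronal RNA-binding protein gene elavl4 was lower in D3MO at -0.61 ± 0.06 and stood at -0.20 ± 0.06 in D1D2MO. The dimmer elavl4 probe stood at -0.80 ± 0.17 in D3MO and -0.07 ± 0.15 in D1D2MO. The neuronal genes stmn2a and sncb stood at -0.46 ± 0.06 and -0.39 ± 0.05 in D3MO (adjusted p = 0.00118 and 0.00142, limma), within the fold threshold. In D1D2MO they stood at 0.14 ± 0.06 and 0.28 ± 0.05 (adjusted p = 0.111 and 0.00546). These 3 neuronal genes thus all had the sign of klf9 in D3MO, whereas the myelin gene plp1a did not.

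Markers of organs outside the tail had named probes too, all of them dim. Their mean log2 intensities ran from 6.78 (serpina1) to 7.77 (crygs3), a range that also holds the klf9 probe (7.51). The probes of the called lists had a lowest value of 6.52 and a median of 9.12. Of 14 liver and yolk markers 4 were named, none changed in D3MO vs SCMO (median -0.08), and all 4 were higher in D1D2MO vs SCMO (median 0.83). Of 12 lens and retina markers 1 was named, the lens crystallin gene crygs3, which was lower in D3MO at -0.66 ± 0.08 and stood at -0.11 ± 0.07 in D1D2MO. The liver and yolk genes therefore moved in the knockdown in which klf9 was not called. The lens gene stood near klf9 (-0.68) in D3MO vs SCMO. In D3MO vs D1D2MO it stood at -0.55 ± 0.08 (adjusted p = 0.0011, limma). It was not called there only because it fell short of the fold threshold, which klf9 passed.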

How the data were processed

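The authors hybridised labelled tail RNA on 2-colour Agilent arrays, quantified spots with GenePix, removed spots near background on all arrays, corrected background by a normal-exponential model and applied loess within arrays. They fitted limma with empirical Bayes and Benjamini-Hochberg adjustment. No limma version was found in the sources used here. The deposited log2 values are the authors' fold changes and, for called probes, mean intensities. The deposited score is the authors' moderated t, and the deposited p-values are unadjusted for all 19523 probes and adjusted for called ones. These contrasts were used as deposited, with the first named group as numerator.

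SE were obtained as the fold change over t. For uncalled probes t was recovered from p with 8.72 total degrees of freedom, which the deposited t and p implied, and adjusted p-values were recomputed over all probes. On called probes this came within 0.483% of the deposited adjusted p-values. In the lists, 4 probes with an adjusted p of 0.05 or more were not counted. RefSeq mRNA accessions were given for 810 of 995 listed probes, and 786 matched 1 gene (assembly GRCz12tu, names only). The brightest probe stands for a gene. Per the methods, each group had 4 biological replicates, labelled in both dyes, so pools recur on arrays and p-values measure a spread that may be partly technical. Precision is limited by the 4 biological replicates per group and not by the number of arrays alone. The SE and intervals may therefore be too narrow for differences between pools.

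The gene klf9, the 5 pathway lists, the 7 marker lists and the tests were chosen with earlier results of these data known. Named are klf9, every list member with a named probe, the 10 genes nearest to klf9, and single markers set beside it. Alternatives changed the centring, the adjustment, the fold threshold and the measure of likeness. The steps were tested on simulated data. Python was used with numpy 2.4.6, pandas 2.3.3 and scipy 1.17.1.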

Additional observations from a re-analysis of the deposited data

Results flagged for a closer look

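The effects of the knockdowns differed for klf9 by the test of the difference itself, the contrast D3MO vs D1D2MO, at -0.72 on the log2 scale. By the same test, and past the fold threshold, the effects differed for 10 other genes of the pathway lists. D3MO was lower than D1D2MO for ucp1 (-1.12), ucp3 (-1.02), klf3 (-0.76), socs3a (-0.74), lpin1a (-0.71), cebpd (-0.61), slc16a10 (-0.60) and fkbp5 (-0.59), and higher for sp6 (0.83) and mmp2 (0.77). Of these genes cebpd, fkbp5 and socs3a differed with neither knockdown past the fold threshold against SCMO. The effects on plp1a also differed by the test (0.52 ± 0.06, adjusted p = 0.000394, limma), but short of the fold threshold. Marker genes were called in this contrast too. By the brightest probe, 4 of 13 named fast muscle markers were lower in D3MO, such as actc1b at -1.36, and 2 of 6 of epidermis. Also lower were 2 of 4 of neurons and 3 of 4 of liver and yolk, such as apoa1a at -1.74. Higher were 2 of 3 of fin fold and notochord and 1 of 4 of erythrocytes, hbbe3 at 1.38. Of all 572 named genes, 229 were lower and 102 higher here, and of all probes 2.28% and 0.912%. Because a gene was named only through a call, the counts in this section are no result about the listed genes. The fin fold gene and2 was higher by its brighter probe (0.90) but stood at -0.52 by its dimmer one. The neuronal gene elavl4 was not called by its brighter probe (-0.41) but was lower by its dimmer one (-0.74).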

How the results depend on the processing

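Only centring changed the fold change of klf9. It gave -0.68 in D3MO vs SCMO, 0.03 in D1D2MO vs SCMO and -0.70 in D3MO vs D1D2MO. The other alternatives kept the fold change and so could not turn its direction. A fold threshold of 5/4 is looser than the main one, so it could not undo a call. The decrease of klf9 was called after centring on the median of all probes and under Holm (adjusted p = 0.0316 for D3MO vs SCMO and 0.0210 for D3MO vs D1D2MO), Benjamini-Yekutieli and a fold threshold of 5/4. It was not called when the fold had to exceed 2, because its values were -0.68 and -0.72, with the adjusted p unchanged. It was also not called when the test asked whether the fold exceeded 1.5 (adjusted p = 1 in both contrasts). Its adjusted p thus ranged from 0.000198 to 1 and from 8.87e-05 to 1, and in D1D2MO vs SCMO from 0.711 to 1. In the contrasts with D3MO the upper end comes from the test of a fold above 1.5, which asks a different question. The 387, 461 and 623 probes called in D3MO vs SCMO, D1D2MO vs SCMO and D3MO vs D1D2MO became 43, 135 and 110 under the test of a fold above 1.5, 5963, 4101 and 5738 with no fold threshold, 2239, 1554 and 2456 above 5/4-fold, and 47, 105 and 80 above 2-fold. Under Holm 198 were called in D3MO vs SCMO and 345 in D3MO vs D1D2MO. Of the 10 nearest genes, 8 were shared with a distance over values divided by their SE and 7 with a mean over probes. The first left out g3bp2a and rpl28, and the mean left out ldha, ccni and ampd1. The genes nop53, g3bp2a, rpl28 and romo1 have 1 named probe each, so the mean could not change their values. Centring on the probes nearest in intensity and leaving out dim probes were not run, because mean intensities were used for called probes alone. No paired analysis was possible because the values used here are contrasts and not values per array. For the same reason no array was left out in turn, and signal over background was not analysed here.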
